A study of Homo sapiens with 20 samples.

Results

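The genes described here are the 4 ERBB receptor genes, EGFR, ERBB2, ERBB3 and ERBB4, and LRIG1, which encodes a membrane protein that restrains these receptors. They were taken by gene name from a count table of 60271 genes, which makes 5 genes of 60271. Expression was measured by RNA-seq in MDA-MB-468, an established line of triple negative breast cancer cells. All cells were serum-starved, and they were then harvested untreated (control) or 12, 24, 48 or 72 h after addition of EGF at 50 ng/mL. The 5 groups had 4 biological replicates each, 20 libraries in all. Cells of all groups were seeded and harvested together, so that they differed in when EGF was added. The study is limited to a single cell line, which its methods state was not authenticated after delivery.

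ERBB receptors are receptor tyrosine kinases at the cell surface that form pairs with each other when a ligand binds, which switches on the RAS-MAP kinase and PI3-kinase pathways. EGFR binds EGF and its relatives, ERBB3 and ERBB4 bind neuregulins, and ERBB2 has no known soluble ligand and serves as a partner. Bound EGFR is ubiquitinated by CBL ligases, taken into the cell and degraded, and LRIG1 promotes this loss. MDA-MB-468 cells are known for an amplified EGFR gene and are widely used for that reason.

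EGFR was upregulated at every EGF time, most at 12 h, where its mRNA was 3.38-fold above control. ERBB3 and LRIG1 were downregulated at all 4 times, and ERBB2 at 12, 24 and 72 h. ERBB4 had 0 counts in all 20 libraries. At 48 h, ERBB2 and LRIG1 were higher than at each of the other EGF times, though the ERBB2 libraries at 48 and 24 h overlapped.

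Promoter sequences are shown for EGFR, the member that rose, and LRIG1, the member with the largest falls on the log2 scale. Each is the 250 bases before the start of a RefSeq transcript in GRCh38.p14, 5′ to 3′ on the strand of the gene, at chr7:55018767-55019016 (+) and chr3:66501122-66501371 (-). Capitals mark GC boxes, written GGGCGG or, on the other strand, CCGCCC.
EGFR promoter: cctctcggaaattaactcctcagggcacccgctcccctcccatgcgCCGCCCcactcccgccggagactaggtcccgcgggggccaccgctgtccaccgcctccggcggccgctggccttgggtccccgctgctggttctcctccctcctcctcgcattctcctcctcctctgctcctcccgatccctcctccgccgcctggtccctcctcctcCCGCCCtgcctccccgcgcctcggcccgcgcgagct
LRIG1 promoter: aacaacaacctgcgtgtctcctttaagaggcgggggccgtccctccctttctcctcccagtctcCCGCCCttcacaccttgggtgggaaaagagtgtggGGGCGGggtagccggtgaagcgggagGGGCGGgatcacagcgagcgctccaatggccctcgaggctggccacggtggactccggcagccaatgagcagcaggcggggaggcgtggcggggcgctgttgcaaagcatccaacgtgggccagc
The EGFR window held 2 GC boxes and had 73.6% G and C, against a median of 58.0% over 35116 such windows. The LRIG1 window held 3 GC boxes and 2 CCAAT boxes, and had 66.8% G and C. In the GENCODE annotation used for gene positions, LRIG1 starts at 66501263 on the minus strand, inside this window. The bases from there on, with the last GC box and the CCAAT boxes, thus lie within the annotated gene. A GC box is a common element, present in 42.6% of all windows, and a CCAAT box (CCAAT or ATTGG) in 32.0%. Neither window held an AP-1 site (TGANTCA, in 6.57% of windows) or a TATA box (TATAAA or TTTATA, in 10.7%). All motifs were searched on both strands, and no GC box match overlapped a CCAAT box match. Windows matched 4 of the 5 members by symbol, all but ERBB3, and of several windows of a gene the most upstream was taken. These letter matches describe the windows, which the RNA data do not test.

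Library totals were 15611961 to 25856953 counts, and levels are given as CPM, each count divided by the TMM-scaled library total and set to a common total. Every library correlated better with its own group than with the others. The mean share of mitochondrial counts was 10.9% in control, and 9.41%, 12.4%, 12.5% and 15.04% at the 4 EGF times in order, and their part in the results was not tested. All 6 epithelial markers were detected, and their summed level was 1557 to 1966 CPM in control libraries, 7328 to 7855 at 12 h, 3700 to 4534 at 24 h, 1751 to 1925 at 48 h and 2438 to 2879 at 72 h. Like EGFR, this sum was highest at 12 h. KRT18 was its largest part, with a mean of 788 CPM in control, 5136 at 12 h and 1441 at 72 h. The markers did not all move alike. At 72 h the means of CDH1 (90.6 CPM, control 127) and EPCAM (144 CPM, control 181) were below control. Those of KRT7, KRT8, KRT18 and KRT19 were above it. Among the receptors that define triple negative tumors PGR was at 0 in all libraries and ESR1 had group means of 2.33 to 5.76 CPM. Summed over 8 fibroblast, leukocyte and endothelial markers, levels were 7.98 to 11.02 CPM in control libraries, 26.1 to 27.1 at 12 h, 28.2 to 33.9 at 24 and 48 h and 40.0 to 46.1 at 72 h. None of the 8 was at 0 in every library, but COL1A2 and CD3E had at most 2 counts in any library. The sum was carried mostly by COL1A1, with 6.18 CPM in control and 13.9 at 72 h, and CD68, with 1.15 and 26.7. Of the CD68 exon bases, 81.7% also belong to a second annotated gene of that strand. The part of these marker sums, epithelial ones included, in the results was not tested.

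Differences were tested in edgeR by quasi-likelihood F tests. The p-values were adjusted by Benjamini and Hochberg's method over the 16522 genes that passed a filter on low counts, and the threshold was 0.05. Of the 5 members, 4 passed this filter and ERBB4 did not. All 4 EGF times were compared with the same 4 control libraries, so that these comparisons are not independent. At 12 h, all 4 tested members passed the threshold, 1 higher and 3 lower, where 69.4% of all genes passed, 32.9% higher and 36.5% lower. The same 1 and 3 passed at 24 h, where 58.8% of all genes passed (29.2% higher, 29.6% lower), and at 72 h, where 61.6% passed (30.6% higher, 31% lower). At 48 h, 1 member was higher and 2 were lower, against 45.8% of all genes (24% higher, 21.8% lower). Large shares of all genes thus passed in each comparison.

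EGFR (ENSG00000146648) encodes the receptor for EGF itself and lies on chromosome 7 at 55019021 to 55211628 on the plus strand of GRCh38, with 34 merged exons. In the control libraries its level was 3357, 3534, 3421 and 3583 CPM. At 12 h it was 11400, 12124, 11584 and 11899 CPM. After TMM scaling, all 12 h libraries were thus over 3 times as high as any control, and the 4 values of each group lay close together. Scaled by library total only, the gap was smaller, with 9824 to 10886 CPM at 12 h and 3617 to 3820.5 CPM in control. At 24 h the libraries had 6996, 7690, 9047 and 7421 CPM after TMM scaling. They had 5202, 5733, 6141 and 5352 CPM at 48 h, and 6012, 5712, 6125 and 5619 CPM at 72 h. Every EGF library was above every control, and the 48 and 72 h libraries overlapped each other. All 4 EGF libraries were above all controls for 29.4% of genes at 12 h, and for 24.2%, 19.6% and 26.1% at the later times in order.

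The log2 fold change of EGFR against control was 1.76 at 12 h (SE 0.068, adjusted p = 1.72e-16 in edgeR). It was 1.16 at 24 h (SE 0.067, 2.24-fold, adjusted p = 3.81e-13). EGFR remained upregulated at 48 h with 0.69 (SE 0.066, 1.61-fold, adjusted p = 8.31e-09) and at 72 h with 0.76 (SE 0.066, 1.69-fold, adjusted p = 7.07e-10). The rise was thus largest at the first time measured and smaller from 24 h on. In control, EGFR already held a mean of 0.372% of all counts, and after EGF it held 1.03%, 0.754%, 0.604% and 0.596% at the 4 times in order. By count it ranked 14 to 16 among all genes in the control libraries and 3 to 6 at 12 h. The antisense gene EGFR-AS1 covers 1.49% of the EGFR exon bases and had at most 1 count in any library.

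**Figure D1:**
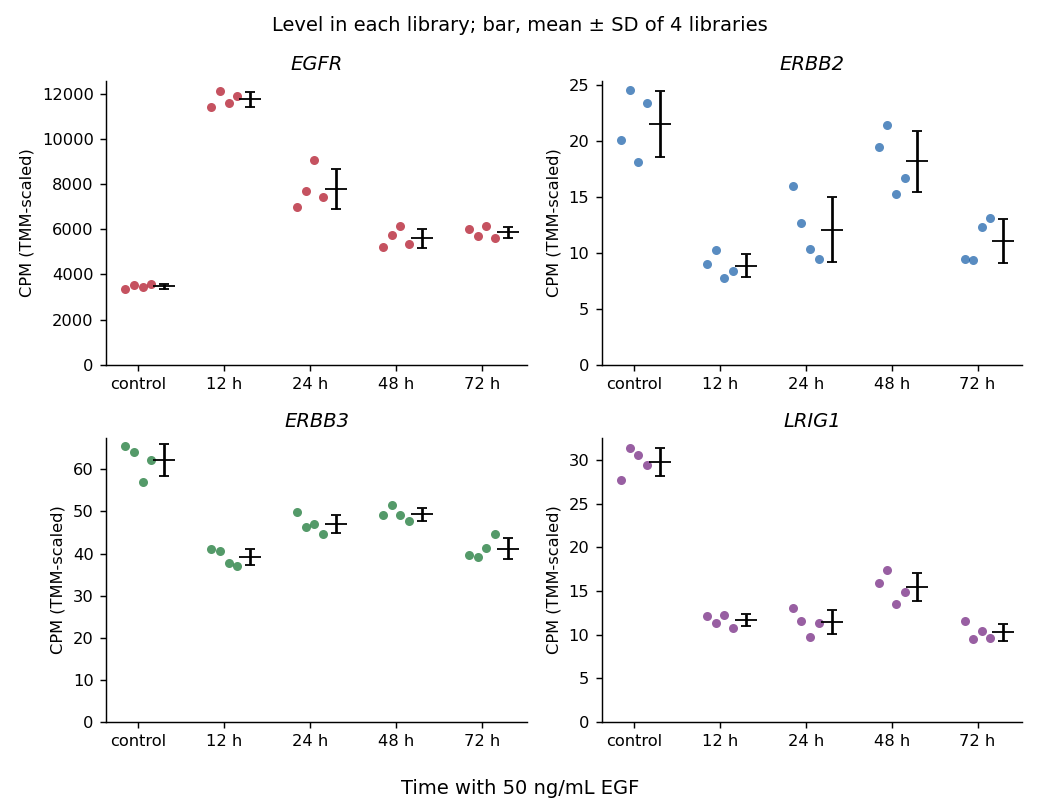
CPM after TMM scaling of EGFR, ERBB2, ERBB3 and LRIG1 (vertical axes, from 0) in the untreated control and after 12, 24, 48 and 72 h with EGF (horizontal axes). Points are the 4 libraries of each group and bars the mean ± SD. EGFR libraries are highest at 12 h, at 11400 to 12124 CPM, while all LRIG1 libraries with EGF, at 9.44 to 17.4 CPM, lie below the controls at 27.8 to 31.4 CPM.

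ERBB2 (ENSG00000141736) encodes the partner receptor also known as HER2 and lies on chromosome 17 at 39687914 to 39730426, plus strand, with 31 merged exons. Control libraries had 20.1, 24.6, 18.1 and 23.4 CPM. The level was 8.99, 10.3, 7.79 and 8.42 CPM at 12 h. It was 15.97, 12.7, 10.3 and 9.42 CPM at 24 h. All libraries of both times were below all controls, and replicate 1 at 24 h was nearest to them. The libraries had 19.5, 21.4, 15.3 and 16.7 CPM at 48 h. At 72 h they had 9.48, 9.33, 12.3 and 13.1 CPM. The 48 h libraries overlapped the controls, and the 72 h libraries lay below both. Between 72 and 48 h, 35.7% of all genes passed the threshold. Of all genes, 31.4% had their 12 h libraries below every control, and 24%, 15.3% and 25.9% had so at 24, 48 and 72 h.

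Against control, the log2 fold change of ERBB2 was -1.28 at 12 h (SE 0.15, adjusted p = 9.88e-08 in edgeR). ERBB2 was also downregulated at 24 h with -0.83 (SE 0.15, adjusted p = 4.99e-05) and at 72 h with -0.97 (SE 0.15, adjusted p = 6.89e-06). At 48 h the difference was -0.25, with a 95% interval of -0.55 to 0.05, and did not pass the threshold (adjusted p = 0.174). The counts behind these levels were 141 to 584 per library, and ERBB2 had the largest SE of the 4 tested members. Exons of MIEN1 and PGAP3 on the opposite strand cover 7.41% of the ERBB2 exon bases, and the strand setting of the counting is not given in the sources used here.

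ERBB3 (ENSG00000065361), whose product has an impaired kinase and signals through its partners, lies on chromosome 12 at 56076799 to 56103505, plus strand, with 28 merged exons. Control libraries had 65.5, 64.2, 56.9 and 62.2 CPM. At 12 h the level was 41.1, 40.7, 37.8 and 37.2 CPM, and at 24 h it was 49.9, 46.4, 47.1 and 44.8 CPM. The groups at 12 and 24 h were apart from the controls and from each other. Between 24 and 12 h, 53.7% of all genes passed the threshold. The libraries had 49.1, 51.5, 49.1 and 47.7 CPM at 48 h. They had 39.7, 39.3, 41.2 and 44.6 CPM at 72 h. The 48 h libraries overlapped those at 24 h, the 72 h libraries overlapped those at 12 h, and every EGF library was below every control.

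ERBB3 was downregulated by a smaller log2 fold change than LRIG1 at each time. It was -0.67 at 12 h (SE 0.065, adjusted p = 2.63e-09 in edgeR) and -0.40 at 24 h (SE 0.064, adjusted p = 9.23e-06). At 48 h it was -0.33 (SE 0.064, adjusted p = 1.53e-04), and at 72 h -0.60 (SE 0.065, adjusted p = 2.57e-08). The group means after EGF were thus 39.2 to 49.4 CPM, against 62.2 CPM in control.

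ERBB4 (ENSG00000178568), the other neuregulin receptor, lies on chromosome 2 at 211375717 to 212538841, minus strand. It had 0 counts in each of the 20 libraries. A count of 0 allows up to 3 counts, which is 0.00744 CPM over all libraries together, for counting error only. Its mRNA was not detectable at this depth in any group, and no comparison was made.

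LRIG1 (ENSG00000144749), the leucine-rich repeat protein that promotes ERBB receptor degradation, lies on chromosome 3 at 66378797 to 66501263, minus strand, with 26 merged exons. In the control libraries its level was 27.8, 31.4, 30.6 and 29.4 CPM. It was 12.2, 11.4, 12.2 and 10.8 CPM at 12 h, and 13.1, 11.5, 9.75 and 11.3 CPM at 24 h. The 2 groups overlapped and were far below all controls. At 48 h the libraries had 15.9, 17.4, 13.6 and 14.9 CPM, and at 72 h 11.6, 9.44, 10.4 and 9.64 CPM. The 48 h libraries were above all others with EGF, yet still below every control. Against 48 h, 70.3% of all genes passed the threshold for 12 h, 50.2% for 24 h and 35.7% for 72 h.

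LRIG1 was downregulated, and its log2 fold change was -1.36 at 12 h (SE 0.095, adjusted p = 8.91e-12 in edgeR) and -1.38 at 24 h (SE 0.096, adjusted p = 1.18e-11). It was -0.95 at 48 h (SE 0.093, adjusted p = 1.05e-08) and -1.53 at 72 h (SE 0.096, adjusted p = 1.58e-12). In bulk RNA, fewer cells with the mRNA and less mRNA per cell cannot be told apart, for LRIG1 as for the other members. SLC25A26, on the opposite strand, covers 12.9% of the LRIG1 exon bases. It had group means of 6.46 to 7.60 CPM and did not pass the threshold at any time against control.

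**Figure D2:**
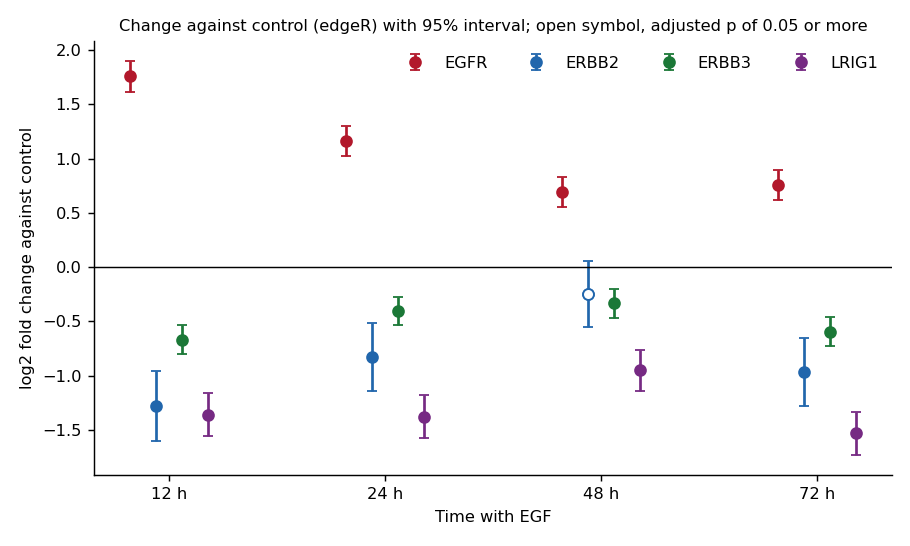
log2 fold change against control (vertical axis) of EGFR, ERBB2, ERBB3 and LRIG1 after 12, 24, 48 and 72 h with EGF (horizontal axis), from edgeR with 95% intervals; the open symbol did not pass the threshold. EGFR is above 0 throughout, from 1.76 down to 0.69, and the others are below 0, with ERBB2 at 48 h the 1 interval that includes 0.

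The EGF times were also compared directly, which tests whether the change against control differed between them. EGFR was lower at 24 h than at 12 h by a log2 fold change of -0.59 (SE 0.066, adjusted p = 1.07e-07), where 53.7% of all genes passed the threshold. It was lower at 48 h than at 24 h by -0.47 (SE 0.066, adjusted p = 2.90e-06), where 50.2% of all genes passed. Between 72 and 48 h, where 35.7% passed, the difference was 0.07 with a 95% interval of -0.07 to 0.20 (adjusted p = 0.476). In order, EGFR was thus highest at 12 h, then 24 h, then 72 and 48 h, which did not differ beyond their spread, and then control.

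ERBB2 was highest in control and at 48 h, which did not differ beyond their spread. It was higher at 48 h than at 12 h by 1.03 (SE 0.15, adjusted p = 2.77e-06 in edgeR), where 70.3% of all genes passed, and than at 24 h by 0.58 (SE 0.15, adjusted p = 0.00262). The 48 and 24 h libraries overlapped, with 15.97 CPM in EGF 24 h replicate 1 and 15.3 CPM in EGF 48 h replicate 3. From 48 to 72 h ERBB2 fell by 0.72 on the log2 scale (SE 0.15, adjusted p = 6.76e-04). Its levels at 24, 72 and 12 h followed in this order, of which neighbours did not pass the threshold, with intervals of -0.46 to 0.19 for 72 against 24 h and -0.02 to 0.64 for 72 against 12 h. The latter passed in 5 of 18 alternatives, which were library size only (0.52), upper quartiles (0.45), at least 10 counts in every library (0.40), factors per gene (0.62) and only the 8 libraries compared (0.32), and over all 18 it ranged from 0.22 to 0.62. Between 24 and 12 h themselves the difference was 0.45 (SE 0.16, adjusted p = 0.0203), but the libraries overlapped. This call held in 14 of 18 alternatives. The losses included those without EGF 24 h replicate 1 (0.28, adjusted p = 0.140), EGF 12 h replicate 3 (0.39, adjusted p = 0.0647) and EGF 12 h replicate 4 (0.42, adjusted p = 0.0519). The adjusted p ranged from 0.00394 to 0.140 over all alternatives.

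ERBB3 was higher at 24 h than at 12 h by 0.26 (SE 0.065, adjusted p = 0.00159 in edgeR) and lower at 72 h than at 48 h by -0.26 (SE 0.065, adjusted p = 0.00280). The levels at 48 and 24 h did not differ beyond their spread (0.07, 95% interval -0.06 to 0.20), nor did those at 72 and 12 h, for which 67.6% of all genes passed (0.07, -0.06 to 0.21). Between 72 and 24 h, where 40.2% of all genes passed, the difference was -0.19 (SE 0.065, adjusted p = 0.0215). This call was lost in 8 of 18 alternatives. It did not pass without EGF 72 h replicate 1 (-0.16, adjusted p = 0.0945), EGF 72 h replicate 2 (-0.17, adjusted p = 0.0656) or EGF 24 h replicate 1 (-0.16, adjusted p = 0.0630), nor with library size only (-0.13), upper quartiles (-0.17), at least 10 counts in every library (-0.14), factors per gene (-0.20) or all genes with 1 count or more (-0.19). The adjusted p ranged from 0.0118 to 0.166 over all alternatives. ERBB3 was higher in control than at any EGF time. With scaling factors per gene from the deposited normalized values, the differences of 24 against 12 h (0.14), 48 against 12 h (0.11) and 72 against 48 h (-0.16) did not pass, and scaled by library size only, that of 48 against 24 h (0.22) did. That of 72 against 12 h passed in 3 of 18 alternatives, with library size only (0.28), upper quartiles (0.21) and at least 10 counts in every library (0.16), and changed sign with factors per gene (-0.06).

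LRIG1 was higher at 48 h than at 12 h by 0.41 (SE 0.097, adjusted p = 7.07e-04 in edgeR) and than at 24 h by 0.43 (SE 0.097, adjusted p = 8.27e-04). From 48 to 72 h it fell by 0.58 on the log2 scale (SE 0.098, adjusted p = 5.89e-05). The levels at 12, 24 and 72 h were the lowest and did not pass the threshold against each other. The 95% intervals were -0.23 to 0.18 for 24 against 12 h, -0.38 to 0.03 for 72 against 12 h and -0.36 to 0.05 for 72 against 24 h. Of the 4 tested members, ERBB2 and LRIG1 were thus higher at 48 h than at 24 h, as were 25.9% of all genes, and lower again at 72 h, as were 17.9%. EGFR took the opposite course from 24 to 48 h.

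Levels of different genes can be compared only per length, here as CPM per kb of merged exons. In control, the level per kb was 277 for EGFR, 6.88 for ERBB3, 4.24 for LRIG1 and 2.09 for ERBB2. At 12 h it was 939 for EGFR, 4.33 for ERBB3, 1.65 for LRIG1 and 0.860 for ERBB2. The order of the 4 genes was the same in the mean of each group. Per length, EGFR made up 96.9% ± 0.200 (SD, n = 4) of the sum of the 4 ERBB receptors in control. Its share after EGF was 99.4% ± 0.0340, 98.97% ± 0.165, 98.4% ± 0.148 and 98.8% ± 0.120 at the 4 times in order. EGFR mRNA was thus by far the most abundant ERBB mRNA before and after EGF. The shares depend on the length used, and with the coding length the control value was 97.8%.

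The EGFR to ERBB2 ratio per length moved more than either gene. It was 134 ± 16.02 (SD, n = 4) in control and 1102 ± 115, 558 ± 161, 259 ± 52.4 and 448 ± 80.0 at the 4 EGF times in order. The ratio of EGFR to LRIG1, the receptor to its inhibitor, was 65.6 ± 2.99 in control and 569 ± 47.3 at 12 h. It was 391 ± 93.2 at 24 h, 206 ± 33.1 at 48 h and 323 ± 21.0 at 72 h. Both ratios were above the control range in every EGF library. The ratio of ERBB3 to ERBB2, per length, stayed between 3.14 at 48 h and 5.08 at 12 h in the group means.

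**Figure D3:**
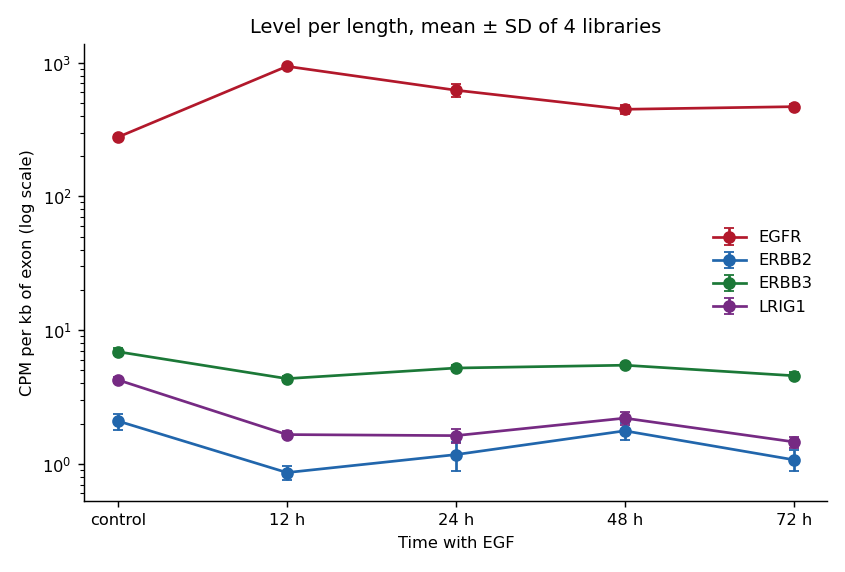
CPM per kb of merged exons (vertical axis, log scale) of EGFR, ERBB3, LRIG1 and ERBB2 in control and after 12, 24, 48 and 72 h with EGF (horizontal axis). Points are means and bars the SD of 4 libraries. EGFR stands at 277 to 939 per kb and the other 3 genes at 0.860 to 6.88 per kb.

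Across the 20 libraries, EGFR varied against the other members. On log2 CPM, Pearson's r was -0.82 with both ERBB2 and ERBB3 and -0.76 with LRIG1. ERBB2, ERBB3 and LRIG1 varied together, with r of 0.90 for ERBB2 and ERBB3, 0.88 for ERBB3 and LRIG1 and 0.81 for ERBB2 and LRIG1. These values are descriptions, since libraries of one group share the treatment and its time.

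Genes with the most similar pattern to each member were taken by Pearson's r over the 20 libraries among 13880 genes with a mean of at least 1 CPM. For EGFR they were CD44, a hyaluronan receptor, with r = 0.993, RUNX1, a transcription factor, with 0.985, and ADGRE5, an adhesion G protein-coupled receptor, with 0.980. CD44 had group means of 2407 CPM in control and 7257, 4901, 3795 and 3989 CPM at the 4 EGF times in order, which follows the order of EGFR. For ERBB2, PATZ1, a zinc finger transcription factor (r = 0.976), and P2RY2, a nucleotide receptor (0.958), are given. PATZ1 went from 22.1 CPM in control to 9.10 at 12 h and 18.1 at 48 h.

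For ERBB3 the most similar genes were CIPC, a circadian regulator (r = 0.970), AMOT, which binds YAP (0.962), and PLCH1, a phospholipase C (0.953). AMOT fell further than ERBB3, from a mean of 198 CPM in control to 39.1 at 12 h. For LRIG1 they were PADI2, a peptidylarginine deiminase (r = 0.973), TEX261 (0.973) and DIRAS3, a small GTPase (0.972). PADI2 had a mean of 618 CPM in control and 320, 306, 401 and 305 CPM after EGF. The r measures the shape of a pattern and not its size.

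**Figure D4:**
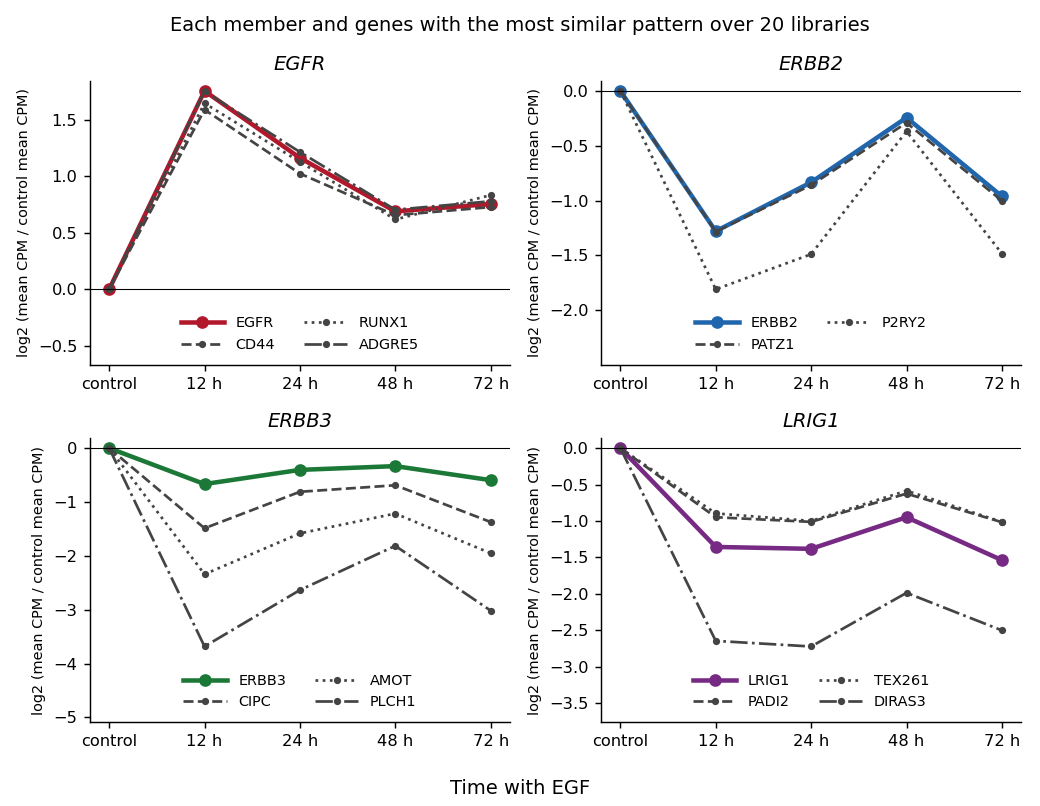
log2 of the mean CPM over the control mean (vertical axes) in control and after 12, 24, 48 and 72 h with EGF (horizontal axes), for each member (thick line) and its most similar genes (thin lines). CD44, RUNX1 and ADGRE5 nearly overlie EGFR, while AMOT and PLCH1 have the shape of ERBB3 with larger falls.

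The other genes of the pathway were described from lists of 56 genes, of which 53 passed the filter. These lists were chosen with earlier results of these data known, so their counts are descriptions and not a test. At 12 h, 40 of the 53 were higher than control, 8 were lower and 5 did not pass the threshold. The counts were 32, 6 and 15 at 24 h, 21, 10 and 22 at 48 h, and 25, 10 and 18 at 72 h. Among all genes tested, 32.9% were higher and 36.5% lower at 12 h, and 29.2% and 29.6% at 24 h. At 48 h these shares were 24% and 21.8%, and at 72 h 30.6% and 31%. Scaled by library size only, 28 of the pathway genes were higher and 12 lower at 12 h, and 28 and 11 at 24 h. The median log2 fold change of these genes was 0.59, 0.43, 0.12 and 0.15 at the 4 times, where that of all genes tested was -0.05, -0.01, 0.01 and -0.01. Within these lists, most genes that passed at 12 and 24 h were thus higher, while ERBB2, ERBB3 and LRIG1 were lower.

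Of 11 ligand genes, 8 were tested, and 5 of them, AREG, HBEGF, EREG, TGFA and EPGN, were higher at all 4 times. At a single time, 24% (48 h) to 32.9% (12 h) of all genes were higher. TGFA, a ligand of EGFR, went from a mean of 30.0 CPM in control to 134 at 12 h (log2 fold change 2.16, adjusted p = 8.31e-15 in edgeR). AREG went from 1.79 CPM to 83.6 CPM at 12 h and 88.8 CPM at 72 h. EGF mRNA itself fell by 2.39 on the log2 scale at 12 h, from 5.13 to 0.977 CPM (adjusted p = 1.69e-12), and did not pass the threshold at 48 h (0.17) or 72 h (0.13).

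Among the 10 inhibitors and phosphatases, 7 were higher and 2 lower at 12 h, 4 and 1 at 24 h, and 3 and 4 at both 48 and 72 h. The shares of all genes higher and lower were 32.9% and 36.5%, 29.2% and 29.6%, 24% and 21.8%, and 30.6% and 31% in order. ERRFI1, which binds and blocks the kinase of EGFR, rose from a mean of 87.8 CPM in control to 1221 at 12 h (log2 fold change 3.80, adjusted p = 3.76e-14 in edgeR). It was higher at all 4 times, in the opposite direction to LRIG1. The relative LRIG3 was higher at 12 h (0.91, adjusted p = 4.49e-08) and lower at 48 h (-0.69, adjusted p = 1.71e-05) and 72 h (-0.48, adjusted p = 6.55e-04). With scaling factors per gene from the deposited normalized values, LRIG3 had -0.04 at 12 h and -0.76 at 72 h, and neither passed the threshold. LRIG2, which lies outside the rule for named genes and was added as the other LRIG gene after its values were seen, was lower at 12 h (-0.24), 48 h (-0.37) and 72 h (-0.47) and did not pass at 24 h (-0.15, adjusted p = 0.0830). At 12 h the TMM-scaled values were thus below 0 for LRIG1 and LRIG2 and above 0 for LRIG3.

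Of 17 genes of receptor ubiquitination, endocytosis and sorting, 14, 12, 8 and 10 were higher at the 4 times in order, and 9 did not pass the threshold at 48 h. Lower were 2 at 12 h and 1 at 24 h. Among all genes, 32.9%, 29.2%, 24% and 30.6% were higher at the 4 times in order. The share lower was 21.8% (48 h) to 36.5% (12 h). The ubiquitin ligase gene CBL rose from a mean of 120.5 CPM to 354 at 12 h (log2 fold change 1.55, adjusted p = 3.35e-13 in edgeR), and SH3KBP1, an adaptor that binds CBL, by 1.95 at 24 h (adjusted p = 3.26e-17). NEDD4, another ubiquitin ligase, had the largest fall of the list, -0.55 at 12 h (adjusted p = 1.20e-05).

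Of the 12 adaptors and first effectors, 9 were higher and 1 lower at 12 h, 7 and 2 at 24 h, 4 and 3 at 48 h, and 5 and 4 at 72 h. For all genes, the shares higher and lower were 32.9% and 36.5%, 29.2% and 29.6%, 24% and 21.8%, and 30.6% and 31%. GAB2, a docking protein, was higher at all 4 times, with 1.35 at 12 h (adjusted p = 1.12e-11 in edgeR). PIK3R1, the regulatory subunit of PI3-kinase, was lower at all 4 times, with -2.16 at 12 h (adjusted p = 7.22e-15) and -1.33 at 48 h. Of the 6 sheddases and chaperones, 5, 4, 1 and 2 were higher at the 4 times, and 2 were lower at 48 h and 1 at 72 h. ADAM9, a membrane protease, rose by 1.81 at 12 h (adjusted p = 3.16e-14), and ADAM10, a sheddase of EGF itself, was lower at 72 h (-0.29, adjusted p = 0.00196), a call that was lost with scaling factors per gene from the deposited normalized values (-0.16).

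**Figure D5:**
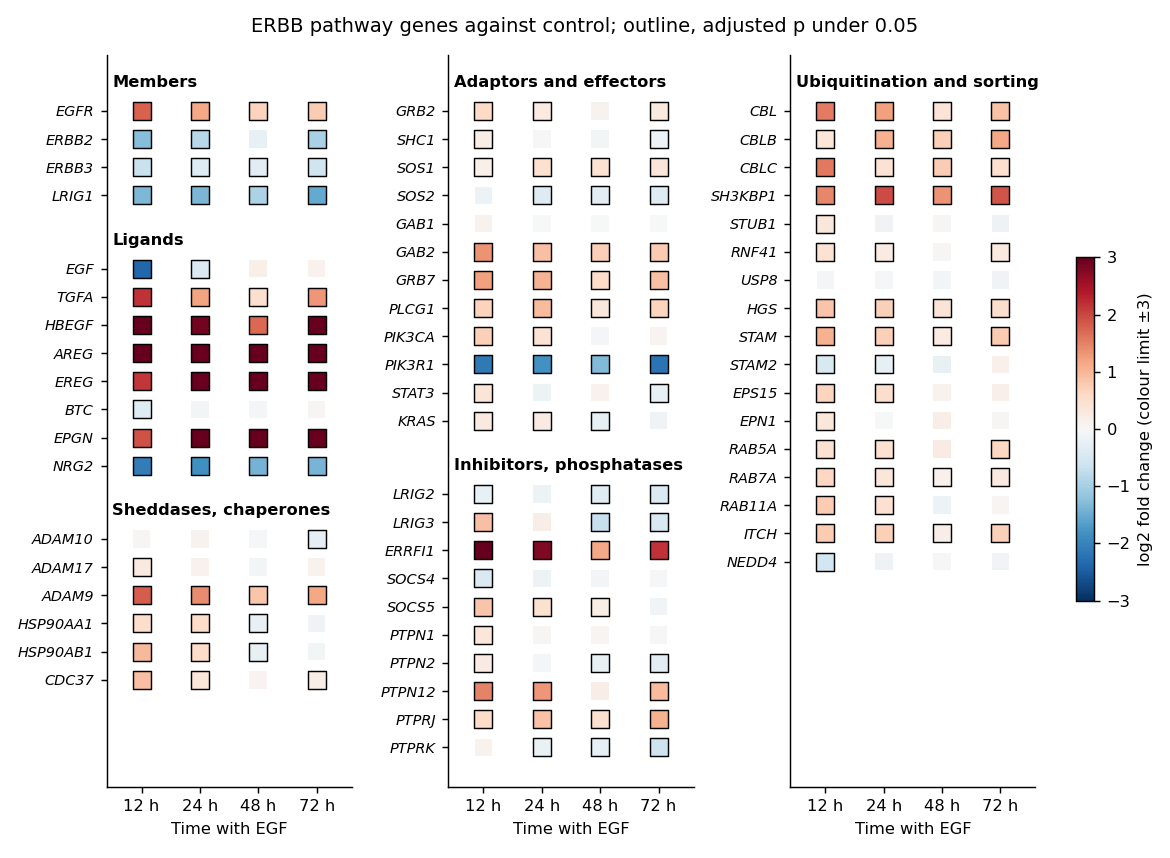
log2 fold change against control (colour, limited to ±3) of the tested members and of the pathway genes that passed the filter (rows, by list) after 12, 24, 48 and 72 h with EGF (columns). A black outline marks an adjusted p under the threshold. At 12 h, ERBB2, ERBB3 and LRIG1 are blue (lower), while 40 of the 53 pathway genes are red (higher) with an outline. Of all genes tested, 32.9% were higher at 12 h by this threshold.

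Genes near the members in the genome were listed too, and 13 of 15 were tested. They were higher, lower and not past the threshold in 5, 3 and 5 cases at 12 h, 4, 4 and 5 at 24 h, 1, 3 and 9 at 48 h, and 4, 4 and 5 at 72 h. Of all genes, 32.9% were higher and 36.5% lower at 12 h, and 29.2% and 29.6% at 24 h. The shares were 24% and 21.8% at 48 h, and 30.6% and 31% at 72 h. LANCL2, the next listed gene after EGFR at a distance of 153.8 kb, was lower at all 4 times, with -0.96 at 12 h (adjusted p = 8.93e-14 in edgeR) from a mean of 641 CPM in control. It moved against EGFR. GRB7, an adaptor gene 7.50 kb from ERBB2, was higher at all 4 times (1.24 at 12 h, adjusted p = 1.29e-08), against the direction of ERBB2. PGAP3, which overlaps ERBB2 on the other strand, was lower at all 4 times, most at 24 h (-2.32, adjusted p = 2.16e-07). Its level was low, with a mean of 3.05 CPM in control and 0.597 at 24 h, from 5 to 14 counts per library at 24 h. PGAP3 shares exon bases with ERBB2, and the strand setting of the counting is not given.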

How the data were processed

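RNA-seq was performed by the authors on MDA-MB-468 cells with the Lexogen Corall mRNA kit and 75 bp single-end reads. The authors deposited 10 tables of the same 60271 genes with estimated counts per library, which were whole numbers. Beside it they deposited a normalized value on the scale of counts, a score used here for 1 alternative only, and fold changes and p-values of their own comparisons, which were not used. The submitters' processing notes name hg38 and DESeq2. The aligner, annotation and handling of molecular identifiers are not given in the sources used here, so counts may hold PCR duplicates.

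The counts were analyzed with edgeR 4.0.16 in R 4.3.3: filterByExpr, TMM, 1 model with a mean per group over 20 libraries, robust quasi-likelihood tests and a prior count of 0.125. DESeq2 1.42.0 was an alternative. SE is the log2 fold change over the root of F. The p-values set each difference against the spread between the replicate libraries, and do not cover other experiments or cell lines. The variance between replicates was 3.77 to 65.4 times counting noise. On simulated data for 12 h against control, 185 of 200 changed genes among 16042 were called, with 5 unchanged genes. Gene positions and lengths are from GENCODE 29 and promoters from RefSeq.

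Named are the members, the 3 most similar genes for each (1 is not reported here), and from each list genes past the threshold at all 4 times in 1 direction, with the largest rise and fall (at most 6 a list). The members and lists were chosen with earlier results of these data known. Alternatives were other scalings, filters, tools and sample sets, a replicate block and leaving out each library. After seeing the data, an alternative was added that took a scaling factor for each gene and library from the normalized values, limited to genes that had 20 counts or more throughout.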

Additional observations from a re-analysis of the deposited data

Results flagged for a closer look

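No library stood apart from the other 3 of its group in any of 20 groups of member levels looked at. Of 24 comparisons between EGF times, 16 passed the threshold in edgeR, so that the change against control differed between these times. Of all genes, 35.7% (72 against 48 h) to 70.3% (48 against 12 h) passed in the same comparisons. For EGFR the log2 fold changes were -0.59 (24 against 12 h), -1.07 (48 against 12 h), -0.47 (48 against 24 h), -1.002 (72 against 12 h) and -0.41 (72 against 24 h). For ERBB2 they were 0.45 (24 against 12 h, a call that held in 14 of 18 alternatives), 1.03 (48 against 12 h), 0.58 (48 against 24 h) and -0.72 (72 against 48 h). For ERBB3 they were 0.26 (24 against 12 h), 0.33 (48 against 12 h), -0.19 (72 against 24 h, a call lost in 8 of 18 alternatives) and -0.26 (72 against 48 h). For LRIG1 they were 0.41 (48 against 12 h), 0.43 (48 against 24 h) and -0.58 (72 against 48 h).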

How the results depend on the processing

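Against control, all 288 alternative values of the 4 tested members kept their direction and side of the threshold. Between EGF times, 397 of 432 did, 15 lost the threshold, 9 passed it and 11 changed sign. The sign changes were in comparisons that did not pass the threshold. For LRIG1 at 24 against 12 h the log2 fold change was 0.12 with library size only, 0.095 with upper quartiles, 0.019 with at least 10 counts in every library and 0.079 with factors per gene. Without 1 library it ranged from -0.096 to 0.043, positive without EGF 24 h replicate 3. LRIG1 at 72 against 12 h had 0.034 and EGFR at 72 against 48 h -0.021 with library size only. With factors per gene, ERBB3 had -0.058 at 72 against 12 h and -0.037 at 48 against 24 h, and ERBB2 0.16 at 72 against 24 h, and without 1 library the latter ranged from -0.25 to 0.026, positive without EGF 24 h replicate 1. The cause was not tested.

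With factors per gene fewer genes were tested, and those called were 6338, 4332 and 6559 at 24, 48 and 72 h against control. They were 5837 (24 against 12 h), 7626 (48 against 12 h), 7267 (72 against 12 h), 4994 (48 against 24 h), 3611 (72 against 24 h) and 3209 (72 against 48 h), and 20 pathway genes at 48 h. The EGFR share per length in control and at 12, 24, 48 and 72 h was 95.96%, 99.3%, 98.7%, 97.9% and 98.5% with the longest transcript and 97.8%, 99.6%, 99.3%, 98.9% and 99.2% with the coding length.

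Over 18 alternatives, the log2 fold change of EGFR at 12 h against control ranged from 1.47 to 1.83. With library size only, the median of all genes moved at 12 h from -0.05 to -0.34 and ERBB3 to -0.95. Genes called higher were then 30.2% of calls at 12 h and 36.3% at 24 h, against 47.4% and 49.6%, and with upper quartiles 37.2% at 12 h. Of 40 correlations of same-numbered libraries, 5 were over 0.1 (range -0.24 to 0.35), and the main model did not pair libraries. The highest were 0.33 and 0.35, for replicates 2 and 3 at 48 h against control. Differently numbered libraries were not compared in this way, so these values cannot decide whether replicate numbers paired the libraries. A replicate block gave EGFR 1.76 at 12 h and 11577 genes called and changed no call of a member. ERBB2, at 141 counts in its lowest library, had the largest SE.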
